A study of Mus musculus with 15 samples.

Results

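The subject here is the shared core of the TRAPP complexes, 8 genes named by symbol: Trappc1, Trappc2, Trappc2l, Trappc3, Trappc4, Trappc5, Trappc6a and Trappc6b. All 8 were found by symbol among the 23337 genes of each of 15 RNA-sequencing libraries, and all 8 passed the filter on low values, with 15181 genes tested in all. The libraries come from mouse bone marrow cells sorted as common myeloid progenitors (CMP) or granulocyte-monocyte progenitors (GMP), from Trappc1KO mice (KO) and Trappc1WT mice (WT), with no treatment. Both sorts took cells negative for lineage markers and Sca1 and positive for CD117 and CD34; CMP were low and GMP high for CD16/32. The groups were KO CMP (libraries 1 to 4), WT CMP (1 to 4), KO GMP (1, 3 and 4) and WT GMP (1 to 4). The sources used here do not give strain, age, sex, the driver of the deletion or the part of Trappc1 that was deleted. No label ties a library to an animal of its own, so the spread behind each p-value is that of the libraries and may be technical in part.

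TRAPP complexes tether vesicles and act as exchange factors that switch on Rab GTPases of the secretory and recycling pathways. TRAPPII and TRAPPIII share one core, to which each adds subunits of its own; TRAPPIII acts mainly on Rab1 and TRAPPII also on Rab11. Within the core, Trappc1, Trappc3, Trappc4 and Trappc5 build the surface that in yeast binds the GTPase, while Trappc2, Trappc2l and the paralogs Trappc6a and Trappc6b sit beside them, with Trappc2 and Trappc2l as attachment points for the subunits that make each complex distinct.

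Promoter sequences from RefSeq (GRCm38.p6, 250 bases before to 50 after the gene's start) were at hand for 6 of the 8 genes: Trappc2, Trappc2l, Trappc3, Trappc5, Trappc6a and Trappc6b. The 4 printed here belong to the genes that the results below turn on. They are Trappc2, the lowest member in every group, and Trappc2l, the 1 member called higher in GMP in both genotypes over all libraries. The KO call of Trappc2l held in only 5 of 15 fits that left out 1 library. The others are Trappc3 and Trappc6b, the pair whose levels moved most alike over the libraries. Capitals mark the motif TCTCGCGAGA in Trappc2, CCAAT in Trappc2l and CCGGAA, the core of an ETS factor motif, in Trappc3 and Trappc6b, on either strand.
Trappc2 (chrX:166440505-166440804, plus strand): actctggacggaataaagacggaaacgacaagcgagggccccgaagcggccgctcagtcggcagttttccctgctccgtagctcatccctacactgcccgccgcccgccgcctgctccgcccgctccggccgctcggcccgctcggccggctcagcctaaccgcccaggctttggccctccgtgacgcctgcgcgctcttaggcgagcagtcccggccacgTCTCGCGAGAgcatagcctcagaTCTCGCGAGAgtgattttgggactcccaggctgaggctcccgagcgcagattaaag
Trappc2l (chr8:122611376-122611675, plus strand): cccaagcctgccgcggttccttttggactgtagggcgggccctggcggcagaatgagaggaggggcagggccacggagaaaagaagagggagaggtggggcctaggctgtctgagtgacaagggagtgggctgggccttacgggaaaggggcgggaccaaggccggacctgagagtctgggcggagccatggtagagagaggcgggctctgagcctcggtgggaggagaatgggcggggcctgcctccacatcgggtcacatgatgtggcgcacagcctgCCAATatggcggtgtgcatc
Trappc3 (chr4:126262155-126262454, plus strand): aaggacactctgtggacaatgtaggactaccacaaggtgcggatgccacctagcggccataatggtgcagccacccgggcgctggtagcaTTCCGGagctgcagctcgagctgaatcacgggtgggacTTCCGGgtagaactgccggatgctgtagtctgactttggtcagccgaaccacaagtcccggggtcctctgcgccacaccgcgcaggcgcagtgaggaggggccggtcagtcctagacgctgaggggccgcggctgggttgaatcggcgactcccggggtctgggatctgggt
Trappc6b (chr12:59061423-59061722, minus strand): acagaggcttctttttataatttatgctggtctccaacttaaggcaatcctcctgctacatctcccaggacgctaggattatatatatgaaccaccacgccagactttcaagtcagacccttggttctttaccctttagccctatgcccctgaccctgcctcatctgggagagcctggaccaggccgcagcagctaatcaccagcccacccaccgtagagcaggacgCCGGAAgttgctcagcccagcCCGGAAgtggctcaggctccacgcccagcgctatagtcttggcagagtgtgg
Positions are counted from the RefSeq start site. Trappc2 held TCTCGCGAGA, a palindrome, at 2 places, which start at positions -29 and -6. At least 1 match was found in 0.5% of 32851 promoters of the same length. In GENCODE M21, Trappc2 starts at 166440574, within the printed stretch and before both matches. The GENCODE starts of Trappc3, 126262325, and of Trappc2l, 122611640, also lie within their printed stretches and are not the RefSeq starts used for the positions. CCGGAA, read on both strands, was in 4 of the 6 core promoters and in 14.9% of all promoters, and it started at -160 and -122 in Trappc3 and at -23 and -2 in Trappc6b. CCAAT was in 2 of the 6 (Trappc2l and Trappc6a) and in 37.4% of all. Of the other motifs searched on both strands, TATAAA was in 2 of the 6 (Trappc5 and Trappc6b) and in 13.6% of all, and CACGTG in 1 of the 6 (Trappc5) and in 7.2% of all. None of these motifs contains another. A match is a description of the letters only.

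Levels are given as CPM, the count of a gene scaled to a common library total, with TMM factors between libraries. Library totals ran from 61.3 to 120.3 M units. A sequenced fragment was taken as about 4 units, which is an assumption. On it the thinnest member, Trappc2, at 298 to 882 units, rested on 74 to 220 fragments in a library. The CD16 gene Fcgr3, a marker of the sort, measured 12.9 and 18.8 CPM in KO CMP 1 and 2, and 31.1 and 28.1 in 3 and 4. In WT CMP it measured 99.5 and 115.4 CPM in 1 and 2, and 36.6 and 39.3 in 3 and 4. WT GMP held 238.7 to 314.5 CPM, and KO GMP 3 and 4 held 310.9 and 294.7. KO GMP 1 held 124.8 CPM, close to WT CMP 2. Libraries KO CMP 1, KO CMP 2 and KO GMP 1 stood apart from the rest. They held the X-inactivation RNA Xist at 109.5, 203.8 and 123.2 CPM, and the other 12 libraries held 2.17 CPM or less, while the Y-linked Ddx3y ran from 57.5 to 100.7 CPM over all 15. The summed level of 4 stromal markers (Col1a1, Col3a1, Sparc and Cxcl12) was 119, 169 and 60.4 CPM in those 3 libraries, against 1.07 to 4.33 in the other KO libraries and 0.596 to 18.2 in the WT libraries. Of those markers, Col1a1 was at 0 in 3 WT libraries and Col3a1 at 0 in 6 of the libraries outside the 3. The 4 primary granule genes (Mpo, Elane, Prtn3 and Ctsg) summed to 4483, 5113 and 21320 CPM in the same 3, all 4 detected. The other KO CMP libraries held 11550 and 12030 CPM of them, the WT CMP libraries 11300 to 23850, the other KO GMP libraries 43520 and 44120 and the WT GMP libraries 38890 to 42040. Neutrophil genes (S100a8, S100a9, Ngp, Camp and Ltf) summed to 2.53, 4.63 and 10.6 CPM in the 3, against 42.2 to 681.7 in the other KO libraries and 22.7 to 715.6 in WT libraries. The WT libraries part by number as well. WT CMP 1 and 2 held 218.6 and 250.5 CPM of the neutrophil genes, and WT CMP 3 and 4 held 22.7 and 31.6. Among these genes only Ltf went against the sum there, at 0.416 and 0.738 CPM in 1 and 2, and 3.45 and 3.43 in 3 and 4. In WT GMP the order of the sums was the reverse of that in WT CMP, with 273.4 and 254.5 CPM in 1 and 2, and 574.7 and 715.6 in 3 and 4. The 3 megakaryocyte genes (Pf4, Itga2b and Vwf), all detected, summed to 616.8 CPM in KO CMP 1 and 424.6 in KO CMP 2, against 297.8 to 385.1 in the other CMP libraries, and to 278 CPM in KO GMP 1, against 72.1 to 95.5 in the other GMP libraries. Cd34, a marker of the sort, measured 547 CPM in KO GMP 1, against 205.8 to 326.4 in the other GMP libraries. Over all 15 libraries, sums of other lineages ran from 6.14 to 19.9 CPM (6 erythroid genes), 0.464 to 23.2 (3 B cell genes, highest in KO CMP 2) and 0.131 to 21.9 (3 T and NK cell genes). Their part in the results below was not tested, and in sorted bulk RNA fewer cells of a type and less RNA per cell cannot be told apart.

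**Figure D1:**
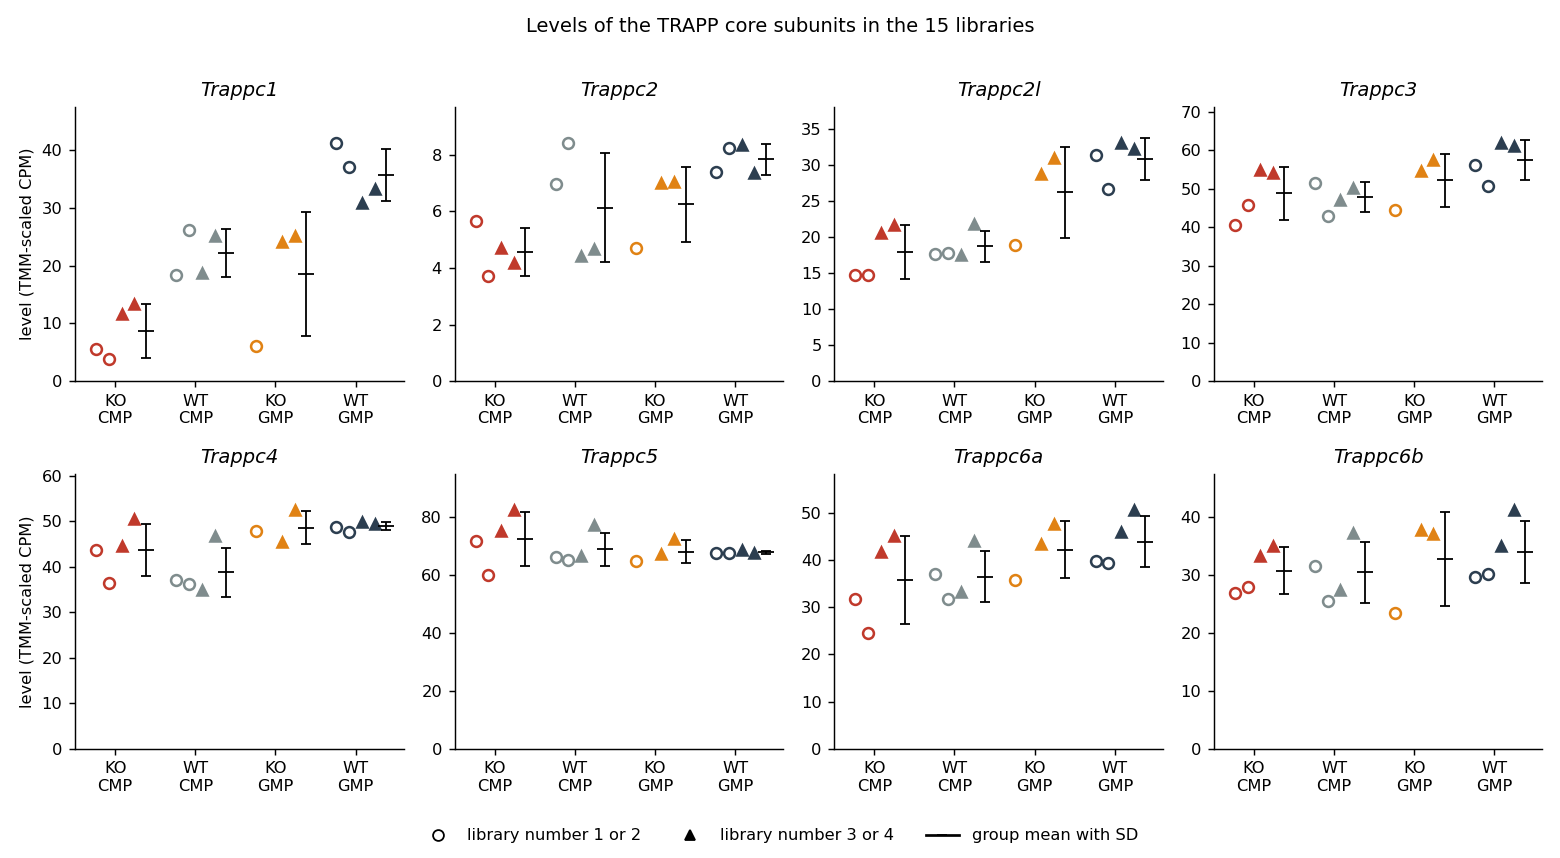
TMM-scaled CPM (y axis, linear) of each core subunit in every library of KO CMP, WT CMP, KO GMP and WT GMP (x axis); open circles are libraries numbered 1 or 2, filled triangles those numbered 3 or 4, and bars the group mean with SD. Trappc1 spans 3.83 to 41.3 CPM over the libraries, while Trappc5 stays between 60.0 and 82.3 CPM.

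Every core subunit was expressed in every library, and the members differed widely in level. Per kb of exon, so that genes of unequal length can be compared, Trappc3 had the highest mean in each group. It stood at 28.1 ± 3.97 CPM per kb in KO CMP (SD, n = 4) and 27.6 ± 2.24 in WT CMP (n = 4). In GMP it stood at 30.1 ± 3.92 in KO (n = 3) and 33.1 ± 2.98 in WT (n = 4). Trappc2, whose human counterpart is mutated in a skeletal dysplasia, had the lowest, at 1.25 ± 0.232 CPM per kb in KO CMP, 1.68 ± 0.527 in WT CMP, 1.71 ± 0.363 in KO GMP and 2.15 ± 0.149 in WT GMP. In WT CMP the order below Trappc3 was Trappc6a (23.0), Trappc1 (19.9), Trappc4 (15.9), Trappc5 (13.9), Trappc6b (12.6), Trappc2l (9.59) and Trappc2, in mean CPM per kb. Each member there was closer to its neighbour in the order than their SDs added, except that Trappc2 lay apart from Trappc2l. Trappc1 was the member whose place in the order shifted most between groups. It was the seventh of the 8 in KO CMP (7.76 ± 4.18 CPM per kb), the third in WT CMP (19.9 ± 3.71), the fourth in KO GMP (16.6 ± 9.66) and the second in WT GMP (32.1 ± 4.08). When the length of the principal transcript in the APPRIS annotation replaced the merged exons, Trappc6a took the first place in all 4 groups and Trappc2 kept the last; Trappc1 was then the sixth in KO CMP, the fourth in WT CMP, the fifth in KO GMP and the second in WT GMP. Among 13639 tested genes with a length, the level of Trappc1 per kb stood at the percentile 61.6 in KO CMP, 81.9 in WT CMP, 77.4 in KO GMP and 87.9 in WT GMP, and that of Trappc2 between the percentiles 31.5 and 39.3.

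The targeted gene checks the labels. Trappc1 (ENSMUSG00000049299.14; GRCm38, chromosome 11, 69323980 to 69325793, plus strand, 4 exon blocks) did not overlap between KO and WT in either cell type, with all KO values the lower ones. In CMP it measured 5.56, 3.83, 11.7 and 13.4 CPM in KO 1 to 4, against 18.4, 26.2, 18.8 and 25.2 CPM in WT 1 to 4. In GMP it measured 6.09, 24.1 and 25.2 CPM in KO 1, 3 and 4, against 41.3, 37.0, 30.9 and 33.3 CPM in WT 1 to 4. Within KO the libraries did not form one level: KO GMP 3 and 4 held about as much Trappc1 as WT CMP 2 and 4, while KO GMP 1 lay with KO CMP 1 and 2. Gene-level values can hold reads from exons that remain, so they do not measure loss of function.

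Whether loss of Trappc1 altered the RNA of its partners in CMP was the first comparison. None of the 7 partners passed, and 5 of them had log2 changes between -0.06 and 0.07. With edgeR's quasi-likelihood test and Benjamini-Hochberg adjustment over all genes, 0 of the 8 core subunits were called in KO CMP, beside 0% of all genes tested; 1 member (Trappc1) and 1761 genes in all had an unadjusted p under 0.05. DESeq2 called 1 member (Trappc1) and 360 genes in all. The log2 change of Trappc1 over all libraries was -1.36 ± 0.41 (SE), with an adjusted p of 0.243 by edgeR and 0.0267 by DESeq2. The median log2 change of the 8 was -0.01, against 0.01 over all genes tested. The groups did not overlap for 1 member, Trappc1, beside 6.85% of all genes tested.

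Among the partners, Trappc2 had the largest change in KO CMP. Trappc2 (ENSMUSG00000079317.10; chromosome X, 166440574 to 166453140, plus strand) measured 5.67, 3.70, 4.71 and 4.16 CPM in KO CMP 1 to 4, against 6.98, 8.43, 4.42 and 4.67 CPM in WT CMP 1 to 4. The WT libraries themselves part by number, with 1 and 2 above every KO library and 3 and 4 within the KO range. The log2 change over all libraries was -0.43 ± 0.22 (95% interval -0.89 to 0.04, edgeR adjusted p = 0.485). For the other 6 partners the intervals bound the change from both sides. Trappc4 (0.17, interval -0.06 to 0.40), which in yeast lines the exchange site with Trappc1, and Trappc5 (0.07, -0.12 to 0.27) had the values furthest above 0. Trappc3 (0.03, -0.22 to 0.27), Trappc6b (0.01, -0.35 to 0.38), Trappc6a (-0.03, -0.40 to 0.34) and Trappc2l (-0.06, -0.42 to 0.30) lay around 0, so the intervals of these 6 reach no lower than -0.42 and no higher than 0.40.

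In GMP the same comparison gave 0 of 8 members called, beside 0% of all genes tested (985 genes and 0 members at an unadjusted p under 0.05 by edgeR; 60 genes and 0 members called by DESeq2). Trappc1 changed by -0.95 ± 0.45 log2 units (edgeR adjusted p = 0.77). Trappc2 measured 4.72, 6.99 and 7.02 CPM in KO GMP 1, 3 and 4, against 7.37, 8.25, 8.34 and 7.35 CPM in WT GMP 1 to 4. All 3 KO values lay below all 4 WT values, with a log2 change of -0.33 ± 0.24 (interval -0.83 to 0.18, edgeR adjusted p = 0.924). Trappc2 and Trappc1 were the 2 members without overlap between the groups, beside 7.34% of all genes tested. Trappc2l, the subunit related to Trappc2, measured 19.0, 28.7 and 30.9 CPM in KO GMP 1, 3 and 4, against 31.4, 26.6, 33.1 and 32.2 CPM in WT GMP 1 to 4. Only KO GMP 1 lay below all WT libraries, and the log2 change was -0.23 ± 0.18 (interval -0.62 to 0.15, edgeR adjusted p = 0.95). The remaining 5 members had log2 changes of -0.14 (Trappc3), -0.06 (Trappc6a), -0.05 (Trappc6b), -0.01 (Trappc4) and 0.0047 (Trappc5). The interval of Trappc3 ran from -0.41 to 0.12 and that of Trappc5 from -0.20 to 0.21. The difference between the KO effect in CMP and in GMP was called for 0 of the 8 members, beside 0% of all genes tested (451 genes and 0 members at an unadjusted p under 0.05; 3 genes and 0 members by DESeq2). For Trappc1 that difference was -0.41 ± 0.60 (interval -1.68 to 0.87), an interval that holds differences in both directions. For the partners it was -0.10 (Trappc2), 0.03 (Trappc6a), 0.07 (Trappc5 and Trappc6b), 0.17 (Trappc2l and Trappc3) and 0.18 (Trappc4).

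**Figure D2:**
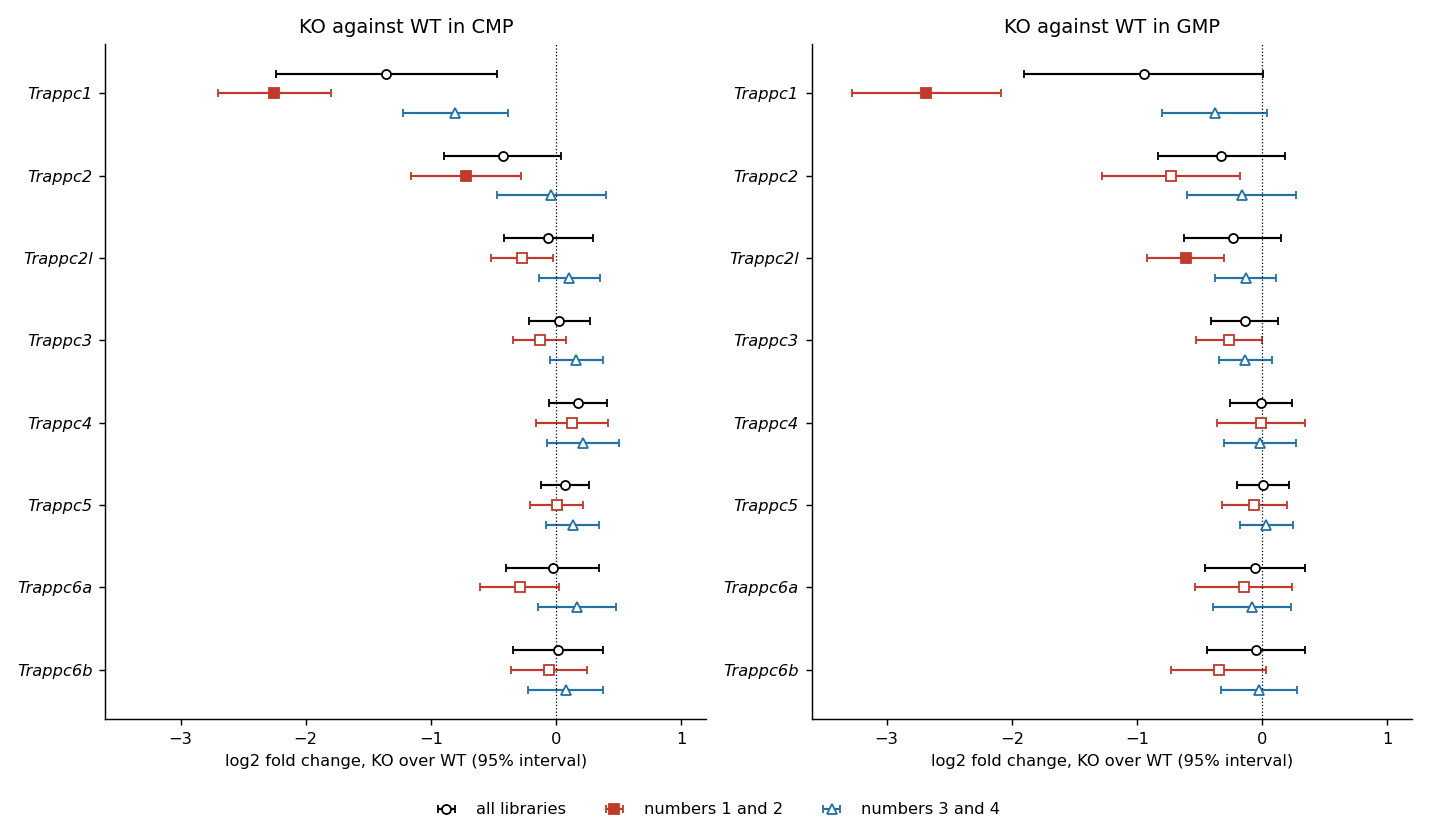
Log2 fold change of KO over WT (x axis) with its 95% interval for each core subunit (y axis) in CMP (left) and GMP (right), over all libraries (black circles), within numbers 1 and 2 (red squares) and within numbers 3 and 4 (blue triangles); filled symbols passed an edgeR adjusted p of 0.05. Filled symbols are Trappc1 and Trappc2 in CMP and Trappc1 and Trappc2l in GMP, all within numbers 1 and 2.

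Because libraries part by number, the KO effect was also fitted within numbers 1 and 2 and within numbers 3 and 4. The shares of all genes called that stand beside these counts are for both directions together. In CMP numbers 1 and 2, 2 of 8 members were lower in KO, Trappc1 (-2.25 ± 0.21) and Trappc2 (-0.72 ± 0.20, edgeR adjusted p = 0.0265), beside 18.5% of all genes called. The call of Trappc2 did not hold without KO CMP 2 (-0.44, adjusted p = 0.142) or without WT CMP 2 (-0.58, adjusted p = 0.163). The other 6 members there had values from -0.29 (Trappc6a) and -0.27 (Trappc2l) to 0.13 (Trappc4). In CMP numbers 3 and 4 there were 0 members called, beside 0.00659% of all genes (edgeR; an unadjusted p under 0.05 was found for 1 member and 1729 genes, and the calls of DESeq2 were Trappc1 and 138 genes in all). There the values were -0.80 ± 0.19 for Trappc1, -0.04 ± 0.20 for Trappc2 and 0.08 (Trappc6b) to 0.21 (Trappc4) for the other 6. In GMP numbers 1 and 2, which hold KO GMP 1 as the only KO library, 2 of 8 members were lower, Trappc1 (-2.69 ± 0.27) and Trappc2l (-0.61 ± 0.14, edgeR adjusted p = 0.00934), beside 20% of all genes called. That KO library is assumed to vary like the others, and Trappc2l was not called there without WT GMP 1 (-0.46, adjusted p = 0.0683). Trappc2 had a value larger in size, -0.73 ± 0.25, that did not pass (edgeR adjusted p = 0.0635); it passed with DESeq2 (-0.72, adjusted p = 0.0437) and with edgeR without KO CMP 1 (adjusted p = 0.021) or KO CMP 2 (adjusted p = 0.0201). The other 5 members ran from -0.35 (Trappc6b) to -0.01 (Trappc4). In GMP numbers 3 and 4 there were 0 members called, beside 0.0132% of all genes (0 members and 789 genes at an unadjusted p under 0.05; 0 members and 43 genes by DESeq2), with -0.38 ± 0.19 for Trappc1 and -0.16 (Trappc2) to 0.03 (Trappc5) for the rest. The calls within numbers 1 and 2 set KO CMP 1 and 2 and KO GMP 1 against WT. The values of Xist, of Fcgr3 and of the stromal, granule, neutrophil and megakaryocyte genes given above go with each of these calls. Those of Cd34 do as well, in GMP as given above. In CMP, Cd34 measured 746.5 and 706.9 CPM in KO 1 and 2, against 524.9 and 571.5 in WT 1 and 2. In libraries 3 and 4 it measured 740.0 and 704.0 CPM in KO CMP, and 645.7 and 692.8 in WT CMP. Genotype cannot be told apart from what else marks KO CMP 1, KO CMP 2 and KO GMP 1. In CMP it also cannot be told apart from what parts WT CMP 1 and 2 from WT CMP 3 and 4. The log2 difference of Trappc2 between libraries 1 and 2 and libraries 3 and 4 was 0.76 ± 0.20 in WT CMP and 0.08 ± 0.20 in KO CMP.

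The difference of the KO effect between the number sets was itself called for 1 of 8 members in CMP, beside 7.64% of all genes, and for 1 of 8 in GMP, beside 10.6% of all genes. Both times it was Trappc1, with a value of -1.45 ± 0.28 in CMP (edgeR adjusted p = 0.00689) and a value of -2.30 ± 0.32 in GMP (adjusted p = 0.000774). The GMP value rests on KO GMP 1 alone for its set, with a spread taken from the other groups. In CMP the difference was -0.68 ± 0.28 for Trappc2 (adjusted p = 0.192) and -0.37 ± 0.16 for Trappc2l (adjusted p = 0.205). In GMP it was -0.56 ± 0.32 for Trappc2 (adjusted p = 0.309) and -0.48 ± 0.18 for Trappc2l (adjusted p = 0.116), so neither gene was shown to differ between the sets.

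The libraries of 1 group were also compared by number, with shares of all genes called again for both directions together. In KO CMP, libraries 1 and 2 were lower than 3 and 4 for 4 of 8 members, beside 29% of all genes called in either direction. These were Trappc1 (-1.42 ± 0.20), Trappc6a (-0.63 ± 0.14, edgeR adjusted p = 0.00848), Trappc2l (-0.53 ± 0.11, adjusted p = 0.00605) and Trappc3 (-0.34 ± 0.10, adjusted p = 0.0238). Trappc3 was not called there without KO CMP 1, 3 or 4, and Trappc6a not without KO CMP 2 or 4. In WT CMP, the 1 member called was Trappc2, higher in libraries 1 and 2 (0.76 ± 0.20, adjusted p = 0.0185), beside 22.9% of all genes, a call that did not hold without WT CMP 2, 3 or 4. In KO GMP, library 1 was lower than 3 and 4 for Trappc1 (-2.02 ± 0.27), Trappc6b (-0.67 ± 0.18, adjusted p = 0.0143) and Trappc2l (-0.65 ± 0.14, adjusted p = 0.00538), which is 3 of 8 beside 26.6% of all genes. One side of this comparison is a single library, so its p-values rest on the spread of the other groups. Trappc6b was not called there without KO GMP 3. In WT GMP it was 0 of 8, beside 8.61% of all genes called.

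Set against the mean log2 level of the other libraries of its group, KO GMP 1 was below for all 7 partners (median -0.35), KO CMP 2 for all 7 (median -0.34) and KO CMP 1 for 5 of 7 (median -0.18). Trappc1 itself was at -2.0 in KO GMP 1, -1.30 in KO CMP 2 and -0.60 in KO CMP 1 by the same measure. WT CMP 3 was also below for all 7 partners (median -0.16), with Trappc1 at -0.29. In WT GMP 1, WT GMP 2 and WT CMP 2, 6 of 7 partners were below (medians -0.04, -0.20 and -0.12) while Trappc1 was not, at 0.29, 0.08 and 0.35. Libraries low for most partners were thus seen in both genotypes. Trappc1 was low in all of those of KO, and among those of WT only in WT CMP 3. Trappc4 and Trappc5 were called in none of the 4 comparisons by number. Trappc4 measured 43.7, 36.5, 44.5 and 50.4 CPM in KO CMP 1 to 4, against 37.1, 36.2, 35.0 and 46.8 CPM in WT CMP 1 to 4. Trappc5 measured 71.7, 60.0, 75.0 and 82.3 CPM in KO CMP 1 to 4, against 66.1, 65.1, 66.4 and 77.2 CPM in WT CMP 1 to 4. The ranges of KO and WT overlap for both genes.

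The second axis of the design is the step from CMP to GMP. In WT, 2 of 8 core subunits were higher in GMP and 0 lower, beside 25.5% of all genes called in either direction and 11.3% called higher. The median log2 difference of the 8 was 0.30, against -0.02 over all genes tested. Trappc2l (ENSMUSG00000015013.9; chromosome 8, 122611640 to 122616660, plus strand) measured 31.4, 26.6, 33.1 and 32.2 CPM in WT GMP 1 to 4, against 17.7, 17.7, 17.5 and 21.9 CPM in WT CMP 1 to 4. The groups lie well apart, with a log2 difference of 0.72 ± 0.17 (interval 0.36 to 1.08, edgeR adjusted p = 0.00696). The call held in all 15 fits that left out 1 library (0.67 to 0.79) and within each number set, at 0.71 ± 0.11 in numbers 1 and 2 and 0.73 ± 0.11 in numbers 3 and 4. Trappc4 (ENSMUSG00000032112.10; chromosome 9, 44403698 to 44407600, minus strand) measured 48.8, 47.7, 49.8 and 49.5 CPM in WT GMP 1 to 4, against 37.1, 36.2, 35.0 and 46.8 CPM in WT CMP 1 to 4. The groups do not overlap, but WT CMP 4 comes close, and the log2 difference was 0.34 ± 0.11 (interval 0.11 to 0.57, edgeR adjusted p = 0.034). This call held in 7 of the 15 fits that left out 1 library; it was lost without KO CMP 3, WT CMP 1, 2 or 3, or any of the WT GMP libraries (0.29 to 0.42 over all 15).

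Trappc1 was also higher in every WT GMP library than in every WT CMP library, with a log2 difference of 0.69 ± 0.41 that did not pass over all libraries (edgeR adjusted p = 0.234). The KO libraries share the estimate of its spread; without KO CMP 1, KO CMP 2 and KO GMP 1 the value was 0.68 ± 0.14 (adjusted p = 0.00271), and with the 2 WT groups alone 0.67 (adjusted p = 0.00858). Trappc1, Trappc2l and Trappc4 are the 3 members without overlap between WT GMP and WT CMP, beside 31.8% of all genes tested. Trappc3 measured 56.3, 50.8, 62.1 and 61.1 CPM in WT GMP 1 to 4, against 51.5, 42.8, 47.1 and 50.3 CPM in WT CMP 1 to 4. WT GMP 2 lies within the CMP range, and the log2 difference of 0.26 ± 0.11 did not pass (edgeR adjusted p = 0.106), though it did with the library number as a block (0.26, adjusted p = 0.0357). Trappc6a (0.27 ± 0.17), Trappc2 (0.36 ± 0.22) and Trappc6b (0.16 ± 0.17) had positive values that did not pass, with edgeR adjusted p of 0.283, 0.253 and 0.536. Trappc5 measured 67.5, 67.4, 68.6 and 67.5 CPM in WT GMP 1 to 4, against 66.1, 65.1, 66.4 and 77.2 CPM in WT CMP 1 to 4. Its log2 difference was -0.02 ± 0.09 (interval -0.21 to 0.17), and apart from WT CMP 4 the 7 values lie between 65.1 and 68.6 CPM.

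**Figure D3:**
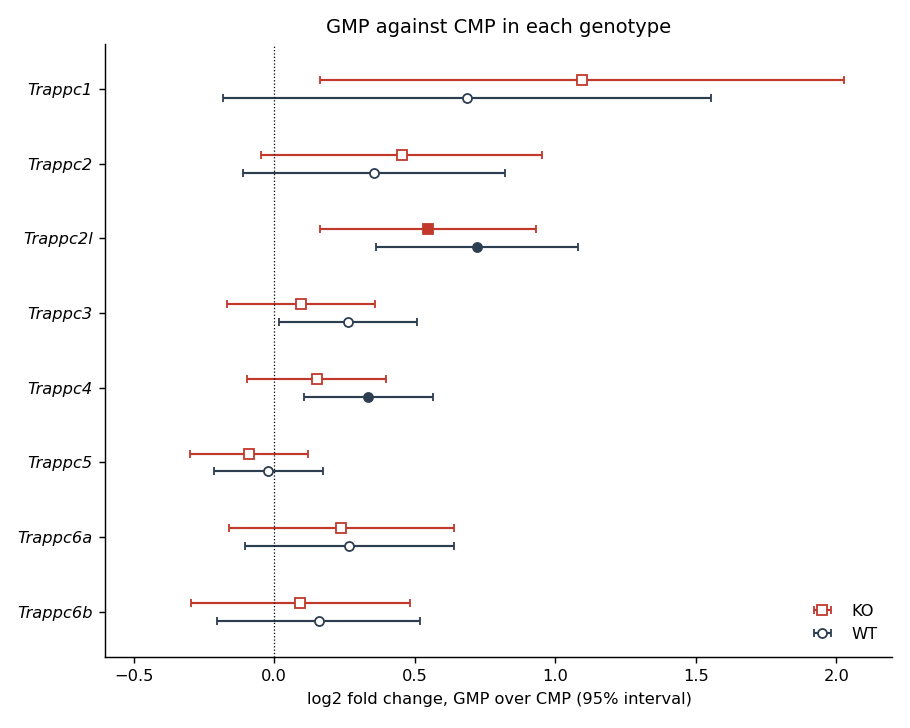
Log2 fold change of GMP over CMP (x axis) with its 95% interval for each core subunit (y axis) in KO (red squares) and WT (dark circles), over all libraries; filled symbols passed an edgeR adjusted p of 0.05. Trappc2l is filled in both genotypes (0.55 in KO, 0.72 in WT) and Trappc4 in WT (0.34), while Trappc5 lies at -0.09 in KO and -0.02 in WT.

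In KO, 1 of 8 members was higher in GMP than in CMP, beside 21.2% of all genes called in either direction and 10.7% called higher. It was Trappc2l again, at 19.0, 28.7 and 30.9 CPM in KO GMP 1, 3 and 4, against 14.7, 14.7, 20.6 and 21.7 CPM in KO CMP 1 to 4. The groups overlap, since KO GMP 1 lies below KO CMP 3 and 4. The log2 difference was 0.55 ± 0.18 (interval 0.16 to 0.93, edgeR adjusted p = 0.0424). This call held in 5 of 15 fits that left out 1 library (0.41 to 0.73), namely those without KO CMP 3, KO CMP 4, KO GMP 1, WT CMP 4 or WT GMP 2, and it did not hold with the 2 KO groups alone (adjusted p = 0.146). The step of Trappc2l was not shown to differ between the genotypes: the difference, WT step minus KO step, was 0.17 ± 0.25 (interval -0.35 to 0.70). Trappc1 stepped by 1.10 ± 0.44 in KO (interval 0.16 to 2.03, edgeR adjusted p = 0.0912), which passed without KO GMP 1 (1.51, adjusted p = 0.00587), without KO CMP 4 (1.39, adjusted p = 0.0475) and with DESeq2 (1.09, adjusted p = 0.0399). The other members did not pass, at 0.45 ± 0.23 for Trappc2, 0.24 for Trappc6a, 0.15 for Trappc4, 0.10 for Trappc3, 0.09 for Trappc6b and -0.09 for Trappc5. The KO groups overlapped for all 8 members, beside 27.8% of all genes tested that did not overlap.

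Within number sets there were fewer libraries a side. The shares of all genes given here are those called in either direction, while the members are counted as higher only. In KO numbers 1 and 2, where a single GMP library stands against 2 CMP libraries, 0 of 8 members were called, beside 15.4% of all genes (edgeR; 1 member at an unadjusted p under 0.05). In WT numbers 1 and 2, 3 of 8 were higher (Trappc2l, Trappc1 at 0.81 ± 0.19 and Trappc4 at 0.40 ± 0.13), beside 25% of all genes. In KO numbers 3 and 4, 3 of 8 were higher, beside 37% of all genes: Trappc1 (0.97 ± 0.19, adjusted p = 0.00171), Trappc2 (0.66 ± 0.20, adjusted p = 0.0212) and Trappc2l (0.49 ± 0.11, adjusted p = 0.00405). In WT numbers 3 and 4, 4 of 8 were higher, beside 38.5% of all genes: Trappc2l, Trappc2 (0.79 ± 0.20, adjusted p = 0.00791), Trappc3 (0.34 ± 0.10, adjusted p = 0.0157) and Trappc1 (0.55 ± 0.19, adjusted p = 0.0385). Trappc2 thus stepped upward in numbers 3 and 4 of both genotypes, while in numbers 1 and 2 its log2 difference was 0.01 ± 0.25 in KO and 0.02 ± 0.20 in WT.

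The balance within the core can be read from levels per kb inside each library, which needs no scaling between libraries. Trappc1 stood at 34.5, 28.5, 69.6 and 72.6% of the median of the other 7 members in KO CMP 1 to 4, against 124.2, 179.5, 125.8 and 145.5% in WT CMP 1 to 4. It stood at 42.0, 139.2 and 142.9% in KO GMP 1, 3 and 4, against 230.8, 243.9, 163.8 and 176.0% in WT GMP 1 to 4. In CMP every KO library was below the median of its partners and every WT library above it; in GMP only KO GMP 1 was below. With the length of the principal transcript in the APPRIS annotation this held for all libraries but WT CMP 1, which then stood at 96.7%, below its partners. The means were 51.3 ± 23.0% in KO CMP and 143.8 ± 25.7% in WT CMP (SD, n = 4 each), and 108.0 ± 57.2% in KO GMP (n = 3) and 203.6 ± 39.6% in WT GMP (n = 4).

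**Figure D4:**
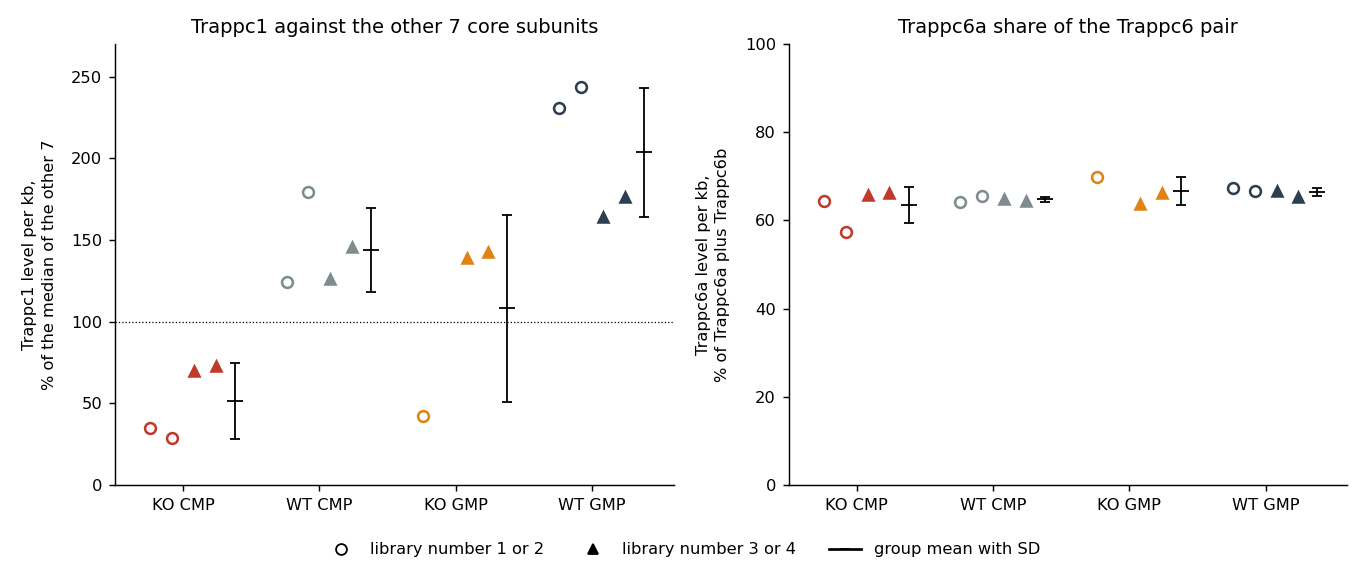
Left, Trappc1 level per kb as a percentage of the median of the other 7 core subunits in the same library (y axis), with a dotted line at 100%; right, the share of Trappc6a in the summed level per kb of Trappc6a and Trappc6b. Groups are on the x axis, open circles are libraries 1 or 2, filled triangles 3 or 4, and bars mean and SD; the left panel runs from 28.5% in KO CMP 2 to 243.9% in WT GMP 2, and the right panel from 57.4% to 69.9%.

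Trappc6a and Trappc6b fill the same place in the core, and a mutation of mouse Trappc6a is known for a patchy coat colour. Trappc6a made up 64.4, 57.4, 65.8 and 66.3% of the pair's summed level per kb in KO CMP 1 to 4, against 64.2, 65.5, 64.9 and 64.3% in WT CMP 1 to 4. In KO GMP 1, 3 and 4 it made up 69.9, 63.7 and 66.2%, against 67.3, 66.6, 66.7 and 65.2% in WT GMP 1 to 4. Outside KO CMP 2 and KO GMP 1, which deviate in opposite directions, the share ran from 63.7 to 67.3%. Between GMP (66.5 ± 0.87%) and CMP (64.7 ± 0.59%) of WT the mean share differed by 1.73 percentage points, with an exact two-sided permutation p of 0.0571 over 70 splits, where the smallest possible is 0.0286. By library number the share was higher in GMP in 4 of 4 WT pairs, by 3.03, 1.12, 1.81 and 0.95 points, and an exact permutation of the signs within pairs gave p = 0.125, the smallest that 4 pairs allow. In KO the difference was 3.16 points (66.6 ± 3.1% in GMP, 63.4 ± 4.1% in CMP; exact permutation p = 0.429 over 35 splits). Within the 3 KO pairs it was 5.54, -2.08 and -0.05 points for numbers 1, 3 and 4, a mean of 1.14 (exact permutation p = 1.0, where 3 pairs allow no less than 0.25).

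The members varied unequally over the libraries. From the lowest to the highest of the 15 libraries, Trappc1 spanned 10.8-fold, Trappc2 2.28-fold, Trappc2l 2.25-fold, Trappc6a 2.06-fold, Trappc6b 1.76-fold, Trappc3 1.53-fold, Trappc4 1.50-fold and Trappc5 1.37-fold, where the median tested gene spanned 1.87-fold. The variation left within groups in the fit placed Trappc1 at the percentile 73.1 of all tested genes and Trappc5 at 10.7. The 2 members with the most similar pattern were Trappc3 and Trappc6b, whose mean-centred log2 levels differed by a root mean square of 0.134 over the 15 libraries, followed by Trappc3 with Trappc6a at 0.159 and Trappc6a with Trappc6b at 0.161. No partner tracked Trappc1 closely: by the same measure Trappc2l was the nearest (0.750), the gene ranked 332 of 10122 genes with a mean of at least 5 CPM. The 5 genes most like Trappc1 over the 15 libraries were F13a1 (0.342), a coagulation factor subunit of monocytes, Clec7a (0.353), the receptor dectin, Ctsh (0.383), a lysosomal protease, Csf1r (0.405), the M-CSF receptor, and Apba1 (0.407), an adaptor protein. F13a1 measured 133.5, 212.5, 445.6 and 441.4 CPM in KO CMP 1 to 4, against 672.1, 787.7, 583.4 and 552.6 CPM in WT CMP 1 to 4. In GMP it measured 344.5, 855.2 and 834.5 CPM in KO 1, 3 and 4, against 1305, 1257, 1085 and 1033 CPM in WT 1 to 4. Like Trappc1, it was lowest in KO CMP 1 and 2 and higher in WT GMP than in WT CMP. Since F13a1 was picked by its likeness to Trappc1 over these same libraries, the shared order is no separate result.

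The subunits that make TRAPPII and TRAPPIII distinct give the frame around the core. Trappc8 to Trappc13, 6 such genes, were tested, while Trappc3l, a paralog of Trappc3 kept on the same list, did not pass the filter on low values. In KO against WT 0 passed in CMP and 0 in GMP by edgeR over all libraries (median log2 change -0.04 in CMP and -0.06 in GMP). In the step from CMP to GMP, 2 of the 6 were higher and 0 lower in each genotype, beside 10.7% of all genes called higher in KO and 11.3% in WT. They were Trappc10, a TRAPPII subunit, by 0.75 ± 0.17 in KO (adjusted p = 0.00609) and 0.49 ± 0.16 in WT (adjusted p = 0.0334), and Trappc11, a TRAPPIII subunit, by 0.44 ± 0.09 in KO (adjusted p = 0.0036) and 0.43 ± 0.08 in WT (adjusted p = 0.00247). Of 34 Rab GTPases and carriers of the transport step from the endoplasmic reticulum to the Golgi, 0 passed in KO against WT in either cell type over all libraries. Within numbers 1 and 2, 11 of the 34 were lower and 2 higher in KO CMP, beside 18.5% of all genes called, and 4 lower and 2 higher in KO GMP, beside 20%; of the 6 complex-specific subunits, Trappc10 was lower in KO CMP (-0.52 ± 0.10, edgeR adjusted p = 0.00207). Those with the smallest p in CMP were Gorasp1 (-0.61 ± 0.07), Rab11a (0.50 ± 0.09), Stx5a (-0.33 ± 0.07) and Uso1 (-0.37 ± 0.08). In GMP they were Gorasp1 (-0.62 ± 0.09), Bet1 (-0.81 ± 0.17), Sec22b (-0.54 ± 0.11) and Sec23a (0.40 ± 0.12). On the KO side these counts rest on the same 3 libraries that stand apart, but the WT CMP libraries part by number too. In WT CMP, 16 of the 34 were higher and 1 lower in libraries 1 and 2 than in 3 and 4, beside 22.9% of all genes called. In KO CMP, 7 were higher and 3 lower, beside 29%. Which side the counts come from was not tested. In numbers 3 and 4, 0 of both lists passed. In GMP against CMP, 16 of the 34 were higher and 1 lower in KO, with a median of 0.31, and 17 higher and 0 lower in WT, with a median of 0.28, beside medians of -0.02 over all genes and the same shares of all genes called higher, 10.7% in KO and 11.3% in WT. The smallest p-values in KO belonged to the Golgi tether Golga2 (0.52 ± 0.08), the COPII coat protein Sec13 (0.48 ± 0.07), the Golgi stacking protein Gorasp2 (0.66 ± 0.11) and the COPII cargo adaptor Sec24d (1.02 ± 0.22). Those in WT belonged to Sec13 (0.51 ± 0.07), Gorasp2 (0.57 ± 0.10), the coat protein Sec23b (0.64 ± 0.13) and Rab1 (0.38 ± 0.07), the GTPase that TRAPP switches on. The gene lower in GMP than in CMP of KO was Rab11a, the GTPase that TRAPPII acts on, named here after its values were seen (-0.35 ± 0.10, adjusted p = 0.0262). The 8 core subunits had medians of 0.20 in KO and 0.30 in WT.

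For 3 of the members another gene lies over their exons, and counting by strand is not stated, so reads of the 2 genes cannot be told apart there. Trappc4 shares 462 exon bases with Rps25, a ribosomal protein gene on the other strand at 880 to 1534 CPM, whose own log2 difference of GMP over CMP was 0.13 ± 0.15 in KO (edgeR adjusted p = 0.601) and 0.14 ± 0.14 in WT (adjusted p = 0.494). Trappc2 shares 131 exon bases with Ofd1, a cilium gene on the other strand, which measured 22.4 to 27.5 CPM in all libraries, with log2 changes in KO against WT of 0.11 ± 0.08 in CMP and 0.12 ± 0.08 in GMP that did not pass. Trappc5 (ENSMUSG00000040236.4; chromosome 8, 3676299 to 3681255, plus strand) shares 492 exon bases with the antisense gene Gm45231. Trappc3 (ENSMUSG00000028847.8; chromosome 4, 126262325 to 126275883, plus strand), Trappc6a (ENSMUSG00000002043.17; chromosome 7, 19508395 to 19516145, plus strand), Trappc6b (ENSMUSG00000020993.9; chromosome 12, 59043092 to 59061472, minus strand), Trappc1 and Trappc2l share no exon bases with another gene in GENCODE M21.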

How the data were processed

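RNA was measured in 15 libraries of sorted mouse bone marrow progenitors. The SMARTER mRNA-Seq kit was used, per the labels' protocols. HISAT and the build mm10 are named, without versions, in the submitters' processing notes, while the sources used here name no counting tool or strand setting. Each deposited value is an expected count of 1 gene symbol, without scaling, and was rounded before use. Of 40915 deposited values from 1 to 40, 38.0% were multiples of 4, where an even spread gives 25%. For this reason 1 fragment was taken as about 4 units (15.3 to 30.1 M fragments a library). Most of these values were not multiples of 4, so the fragment counts are an assumption. No 2 libraries were identical.

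Tests used R 4.3.3 with edgeR 4.0.16: filterByExpr on the 4 groups (15181 genes), TMM factors, and a quasi-likelihood fit of all 15 libraries with 1 coefficient for each group (11 residual degrees of freedom). P-values are two-sided and Benjamini-Hochberg adjusted over all genes tested, with a threshold of 0.05. Any adjusted p without a named tool is from edgeR. Values after ± are SE for log2 changes and SD for levels, and intervals are 95%. A second fit split each group by number set, which left 7 residual degrees of freedom. This split, 1 and 2 against 3 and 4, follows earlier results of these data and is not called a batch in the labels. Trappc6a shares were compared by exact permutation tests. Alternatives were RLE factors, DESeq2 1.42.0, no filter, values divided by 4, a block by library number, the 2 groups alone, and libraries left out. The fitting code was tested on simulated data.

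Library numbers may pair libraries, but the main fit does not pair them, and the block by number is an alternative. Deviations from group means correlated in every same-numbered pair of the groups compared. The values were 0.176 to 0.346 for KO and WT CMP and 0.127 to 0.181 for KO and WT GMP. They were 0.326 to 0.419 for KO GMP and CMP, and 0.141 to 0.211 for WT GMP and CMP. Correlations between libraries of different numbers were not computed, so these values cannot tell pairing from the split by number set. All 8 members are named in each comparison over all libraries, while within number sets some that were not called are given as ranges; of the complex-specific subunits and the list of 34 transport genes, up to 4 that passed are named per comparison by smallest p; likeness to Trappc1 is the root mean square difference of mean-centred log2(CPM + 0.1) over the 15 libraries, among genes with a mean of at least 5 CPM. Members, lists and number sets were chosen with earlier results of these data known. Gene models are GENCODE M21 on GRCm38. Python 3.11.15 with pandas 2.3.3 was used for the remaining steps.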

Additional observations from a re-analysis of the deposited data

Results flagged for a closer look

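Values far from the rest of their group were looked for in the 24 sets of 4 libraries (8 members in KO CMP, WT CMP and WT GMP) by Dixon's ratio, for which chance flags about 1 group in 20. In WT CMP 4, Trappc2l at 21.87 CPM and Trappc5 at 77.15 CPM lay above the other 3 libraries of the group, with ratios of 0.952 and 0.89 that both pass the 95% limit for 4 samples. In WT GMP 3, Trappc5 at 68.56 CPM lay above the others with a ratio of 0.916, in a group whose SD is 0.551 CPM. The KO effect on Trappc1 was larger in size in numbers 1 and 2 than in numbers 3 and 4, by -1.45 in CMP and by -2.30 in GMP on the log2 scale, as tested in the fit by number sets.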

How the results depend on the processing

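With 1 library left out at a time, the number of core subunits called was 0 throughout for KO against WT in CMP, in GMP and for their difference. It ran from 0 to 2 for GMP against CMP in KO and from 1 to 2 in WT. It ran from 1 to 2 for KO against WT in CMP numbers 1 and 2, from 1 to 3 in GMP numbers 1 and 2, and from 1 to 2 for the difference between the sets in CMP. Without KO CMP 1, KO CMP 2 and KO GMP 1 together, 2 members were called for GMP against CMP in KO (Trappc1 and Trappc2l) and 4 in WT (Trappc1, Trappc2l, Trappc3 and Trappc4). DESeq2 called 1 member for KO against WT in CMP and 1 within CMP numbers 3 and 4 (Trappc1 both times), 3 within GMP numbers 1 and 2 (adding Trappc2), and 2 for GMP against CMP in KO (Trappc1 and Trappc2l); with the 2 groups alone the last count was 0. Within number sets, KO against WT gave 2 members in CMP and 2 in GMP for numbers 1 and 2, and GMP against CMP gave 0 and 3 in KO for numbers 1 and 2 and numbers 3 and 4, and 4 in WT numbers 3 and 4. RLE factors, no filter on low counts and values divided by 4 changed none of these counts by more than 1.5 times. The fit with the library number as a block, which takes the numbers as pairs, called 3 members for GMP against CMP in WT, adding Trappc3, and changed no other call; for the share of Trappc6a, exact tests within pairs, added after seeing the data, gave 1.73 points in WT and 1.14 in KO. The share of Trappc6a differed between WT GMP and WT CMP by 1.46 to 2.14 points with 1 library left out, with an exact permutation p of 0.0286 to 0.0857, under 0.05 only without WT GMP 4; between KO GMP and KO CMP it ran from 1.14 to 4.63 points. The cause of these changes was not tested. Over all genes, GMP against CMP in KO called 3225, but 1876 with the 2 KO groups alone, and 1656 and 1763 without KO GMP 3 and KO GMP 4; in WT it called 3872, but 2430 without WT CMP 3. KO against WT in CMP called 0 genes, but 360 with DESeq2 and 50 without WT CMP 4, and 1 without KO CMP 1; in GMP it called 0, but 60 with DESeq2. Within numbers 3 and 4, KO against WT called 1 gene in CMP (138 with DESeq2, 0 to 46 with 1 library left out, the highest without KO CMP 1) and 2 in GMP (43 with DESeq2, 9 with values divided by 4, up to 28 without KO CMP 1 or KO CMP 2). Within GMP numbers 1 and 2 it called 3033, but 1968 without WT GMP 1. The difference between the sets called 1160 genes in CMP, but 743 without KO CMP 4, and 1614 in GMP, but 1018 without KO GMP 4 and 1015 without WT GMP 3. Numbers 1 and 2 against 3 and 4 called 4399 genes in KO CMP (2692 without KO CMP 2, 1436 without KO CMP 4), 3479 in WT CMP (1510 without WT CMP 2, 1503 without WT CMP 4), 4043 in KO GMP (2387 without KO GMP 4) and 1307 in WT GMP (2082 with DESeq2, 410 to 625 without 1 of its libraries). The block, the 2 groups alone and no filter were not run within number sets, and the GMP effect in numbers 1 and 2 cannot be fitted without KO GMP 1.

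Low values limit Trappc2 most, with 298 to 882 units a library, or 74 to 220 fragments if 1 fragment is about 4 units. KO GMP holds 3 libraries, and numbers 1 and 2 hold 1 of them, so that set tests 1 library. Values are counts per gene, so an exon that is lost and one that remains are summed.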
